A study of Mus musculus with 12 samples.

Results

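The receptor chains of the common gamma chain cytokine family were followed across 3 CD4+ T cell populations sorted from mouse thymus. Their genes were chosen by symbol, as Il2ra, Il2rb, Il2rg, Il7r, Il4ra, Il21r, Il15ra and Il9r, which gave 8 of the 55450 genes in the deposited table, and all 8 passed the filter on low counts. Each population had 4 libraries, numbered 1 to 4, and every library, those of conventional T cells included, came from animals that carried CD4-Cre and a Foxp3-GFP reporter. Eos+ Tregs were CD4+Foxp3+Ccr6+Cxcr4+ cells, Eos- Tregs were CD4+Foxp3+Ccr6-Cxcr4- cells, and conventional T cells (Tconv) were CD4+Foxp3- cells. A Treg is a regulatory T cell, Foxp3 is its defining transcription factor, and Eos is the protein product of Ikzf4, a transcription factor of the Ikaros family. Eos itself was not sorted on, so the Eos+ and Eos- groups were defined by 2 chemokine receptors on the surface. The labels give neither the age of the mice nor whether libraries of a group came from separate animals, so p-values here reflect variation among libraries that could be purely technical.

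The common gamma chain, encoded by Il2rg, is the signalling chain shared by the receptors for IL-2, IL-4, IL-7, IL-9, IL-15 and IL-21. Each cytokine adds its own chain: IL-7 binds the alpha chain encoded by Il7r, and IL-2 and IL-15 share the beta chain encoded by Il2rb and each add an alpha chain (Il2ra, also called CD25, and Il15ra) that raises affinity. Jak1 and Jak3 sit on these chains and activate STAT proteins, with Stat5a and Stat5b the main targets of IL-2 and IL-7. In the thymus IL-7 supports early thymocytes, while IL-2 through CD25 supports Treg differentiation and survival, and most Tregs are known for high CD25 and low IL-7 receptor.

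Levels are given in CPM, a gene's counts relative to its library's total, scaled by TMM to correct for differences in RNA composition, with mean ± SD over 4 libraries. Fold changes, their standard errors (SE) and Benjamini-Hochberg adjusted p-values come from the quasi-likelihood test of edgeR over 15361 tested genes, and a gene was called at an adjusted p under 0.05. The libraries held 23.9 to 37.9 M expected counts each. Ikzf4 averaged 314 ± 17.5 CPM in Eos+ and 171 ± 12.7 CPM in Eos- Tregs, and 25.3 ± 2.22 CPM in Tconv, so its transcript was lower in Eos- Tregs but not absent. Of the sort markers, Ccr6 averaged 246, 14.4 and 3.27 CPM in that order and separated the groups, Cxcr4 averaged 39.1, 28.7 and 15.2 CPM and overlapped between both kinds of Treg, and Cd4 was above 500 CPM in all 12 libraries. Foxp3 was 485 to 862 CPM in the Treg libraries numbered 2 to 4 but only 55.0 and 53.3 CPM in those numbered 1, and at most 3.42 CPM in Tconv. On the second principal component, which held 19.7% of the variance, Eos- Treg replicate 1 lay at -8.37 and the other 3 Eos- Treg libraries at 34.4 to 50.6. For Il7r, Il9r and Il15ra, differences between the kinds of Treg are therefore also given without all libraries numbered 1.

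Sequence just upstream of the start was available for 7 of the 8 genes, all but Il2rb, from RefSeq in the GRCm38.p6 build. The 4 shown here belong to the genes with the largest change from Tconv (Il2ra), the largest difference between Eos+ and Eos- Tregs (Il9r), the smallest SD relative to its mean within both kinds of Treg (Il21r) and the IL-7 side of the IL-2 to IL-7 comparison (Il7r). Capitals mark matches to short motifs of STAT, FOXO, RUNX, ETS, NF-kB and GATA factors on either strand, which were picked with the results known. The 3 longer windows cover the 250 bases before the RefSeq start, and for Il7r only 30 bases around its STAT match are printed because the RefSeq start lies 300 bases inside the gene as GENCODE draws it.
Il2ra, chr2:11642542-11642791, plus strand: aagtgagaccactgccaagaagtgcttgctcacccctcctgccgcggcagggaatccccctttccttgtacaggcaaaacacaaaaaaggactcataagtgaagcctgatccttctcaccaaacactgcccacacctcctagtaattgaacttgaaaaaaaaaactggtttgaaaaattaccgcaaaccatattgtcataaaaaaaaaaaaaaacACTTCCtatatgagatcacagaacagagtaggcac
Il9r, chr11:32200280-32200529, minus strand: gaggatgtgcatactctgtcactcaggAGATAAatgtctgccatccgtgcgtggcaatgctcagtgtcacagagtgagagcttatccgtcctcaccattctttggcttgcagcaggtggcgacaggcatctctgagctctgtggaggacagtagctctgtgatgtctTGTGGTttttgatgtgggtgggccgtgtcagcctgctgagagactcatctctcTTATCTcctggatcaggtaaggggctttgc
Il21r, chr7:125603179-125603428, plus strand: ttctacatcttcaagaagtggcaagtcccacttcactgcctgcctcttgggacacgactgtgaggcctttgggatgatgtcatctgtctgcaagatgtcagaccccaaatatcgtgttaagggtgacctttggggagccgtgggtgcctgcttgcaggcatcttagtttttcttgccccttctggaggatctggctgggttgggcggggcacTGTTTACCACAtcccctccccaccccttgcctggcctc
Il7r, chr15:9529999-9530028, minus strand: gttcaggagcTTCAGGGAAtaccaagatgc
The Il2ra window held 1 match to the ETS motif GGAAGT, on the reverse strand, 35 to 30 bases before the start. In the Il9r window the GATA motif AGATAA matched at 223 to 218 and, on the reverse strand, at 30 to 25 bases before the start, and the RUNX motif TGTGGT matched at 83 to 78. For Il21r, the FOXO motif GTAAACA (38 to 32) and the RUNX motif (33 to 28) matched on the reverse strand and overlapped. The Il7r stretch holds the STAT motif TTCNNNGAA at 142 to 134 bases before the RefSeq start, and the full Il7r window also held an ETS match at 49 to 44. Among 32851 promoter windows of the same table, each 250 bases, the ETS motif was present in 19.7%, RUNX in 14.0%, GATA in 9.99%, STAT in 7.02%, FOXO in 3.17% and the NF-kB motif (GGG, any 2 bases, then TTTCC), which none of the 7 windows held, in 1.41%. These are matches of letters and not measured binding sites, and other forms of each motif were not searched.

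**Figure D1:**
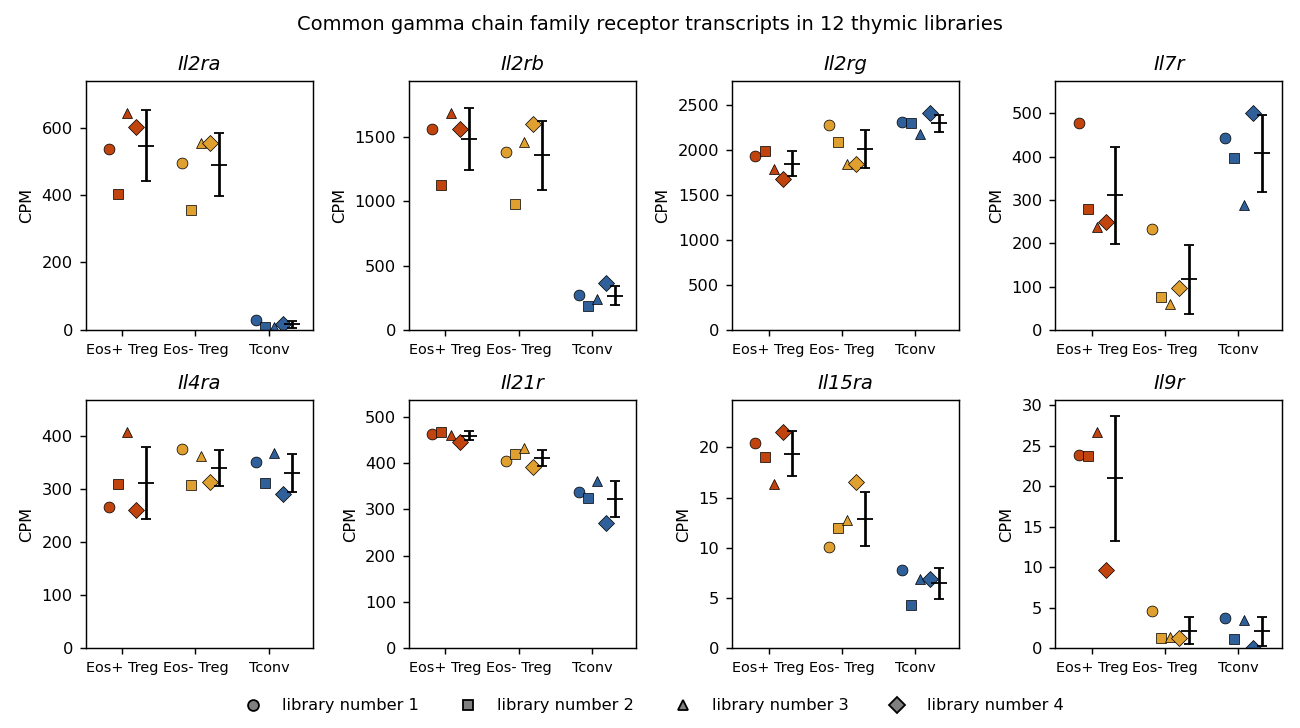
Level of each of the 8 receptor genes in CPM (linear axis from 0, a scale of its own for each gene) in every library of Eos+ Tregs, Eos- Tregs and Tconv; points are libraries, marked by number, and bars are group means with SD. Il2ra and Il2rb are high in both kinds of Treg, Il7r is lowest in Eos- Tregs, Il9r is highest in the 4 Eos+ Treg libraries, and Il2rg, Il4ra and Il21r differ by less than 1.5-fold.

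Both chains specific to the IL-2 receptor were far higher in Tregs than in Tconv and did not differ detectably between the kinds of Treg. Il2ra (ENSMUSG00000026770.5, chromosome 2, 11642807 to 11693193, plus strand), the CD25 chain that raises affinity for IL-2, was 538, 402, 642 and 602 CPM in Eos+ Treg libraries 1 to 4. In Eos- Tregs it was 496, 355, 553 and 554 CPM, and in Tconv 30.04, 9.62, 9.26 and 18.2 CPM. All 8 Treg libraries lay above all 4 Tconv libraries, while Eos+ and Eos- Tregs overlapped, with replicate 2 the lowest of each kind of Treg and replicate 1 the highest in Tconv. The rise over Tconv was 32.5-fold in Eos+ Tregs (log2 5.02 ± 0.37 SE, adjusted p = 7.5e-07 with edgeR) and 29.2-fold in Eos- Tregs (log2 4.87 ± 0.37, adjusted p = 3.22e-06). Between the kinds of Treg the log2 difference was 0.16 ± 0.31 (adjusted p = 0.794 with edgeR), with a 95% interval of -0.51 to 0.82 from this unpaired fit. Within a number the Eos+ to Eos- ratio was 1.08, 1.13, 1.16 and 1.09, above 1 in 4 of 4, and the difference did not pass with the library number as a block either. In RNA from sorted bulk cells, fewer cells that carry a transcript and less of it per cell cannot be told apart.

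Il2rb (ENSMUSG00000068227.9, chromosome 15, 78479256 to 78495271, minus strand), the signalling beta chain of the IL-2 and IL-15 receptors, was 1560, 1128, 1680 and 1558 CPM in Eos+ Tregs. It was 1378, 981, 1457 and 1602 CPM in Eos- Tregs and 271, 186, 242 and 363 CPM in Tconv. The Tconv libraries therefore held a sizeable level of the beta chain, with replicate 2 the lowest library of each group, and none reached the Treg range. Which of the CD4+Foxp3- cells carried it was not tested. Il2rb was 5.58-fold higher in Eos+ Tregs than in Tconv (log2 2.48 ± 0.21 SE, adjusted p = 2.39e-06 with edgeR) and 5.10-fold higher in Eos- Tregs (log2 2.35 ± 0.21, adjusted p = 1.26e-05). The log2 difference between Eos+ and Eos- Tregs was 0.13 ± 0.20 (adjusted p = 0.727, 95% interval -0.30 to 0.56), and their values overlapped. Divided by exon length, the ratio of Il2ra to Il2rb was nearly constant over the 8 Treg libraries, at 0.259 to 0.290 in Eos+ and 0.260 to 0.285 in Eos- Tregs, against 0.0287 to 0.0832 in Tconv.

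Il2rg (ENSMUSG00000031304.18, chromosome X, 101264378 to 101268255, minus strand), the shared gamma chain, had the highest level per kilobase of exon of the 8 genes in all 3 populations and changed little. It was 1934, 1997, 1789 and 1684 CPM in Eos+ Tregs, 2284, 2093, 1849 and 1851 CPM in Eos- Tregs, and 2315, 2303, 2183 and 2410 in Tconv. Every Eos+ Treg library lay below every Tconv library, and Eos- Tregs spanned the gap between them and overlapped both. The gene was 1.24-fold lower in Eos+ Tregs than in Tconv (log2 -0.32 ± 0.09 SE, adjusted p = 0.0180 with edgeR). That call ended when all libraries numbered 2, 3 or 4 were left out (adjusted p = 0.0529, 0.0557 and 0.107, over a range of 0.0017 to 0.999999 across all alternatives). The upper end of this range came from a test against a 1.5-fold change, which a difference this small could not pass. That test is part of every such range given below. The log2 difference was -0.19 ± 0.09 between Eos- Tregs and Tconv (adjusted p = 0.194) and -0.13 ± 0.09 between the kinds of Treg (adjusted p = 0.399). Il2rg shares exon positions with the read-through gene Gm20489, which reached at most 0.219 CPM.

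Il7r, the alpha chain of the IL-7 receptor, separated the kinds of Treg. Eos+ Tregs had 2.67-fold the level of Eos- Tregs, and Eos- Tregs were 3.50-fold below Tconv, whereas Eos+ Tregs and Tconv overlapped. In Eos+ Tregs, Il7r (ENSMUSG00000003882.5, chromosome 15, 9505788 to 9530176, minus strand) stood at 478, 279, 238 and 250 CPM in replicates 1 to 4. It was 234, 76.7, 59.7 and 96.4 CPM in Eos- Tregs and 444, 398, 290 and 500 CPM in Tconv. Replicate 1 was the highest library of both Treg groups, and the highest Eos- Treg value, 234, lay just under the lowest Eos+ Treg value, 238. Within a number the Eos+ to Eos- ratio was 2.04, 3.63, 3.99 and 2.59, above 1 in 4 of 4. The log2 difference was 1.42 ± 0.38 SE between Eos+ and Eos- Tregs (adjusted p = 0.0218 with edgeR) and -1.81 ± 0.38 between Eos- Tregs and Tconv (adjusted p = 0.00679). Between Eos+ Tregs and Tconv it was -0.39 ± 0.37 (adjusted p = 0.484, 95% interval -1.19 to 0.41).

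With the library number as a block, the log2 difference of Il7r between Eos+ and Eos- Tregs was 1.54 (adjusted p = 0.000819 with edgeR). In fits without the block, the Il7r call between the kinds of Treg was not stable to the loss of 1 library. It ended without Eos+ Treg replicate 1 (log2 1.13, adjusted p = 0.0680 with edgeR) and without Eos- Treg replicate 2 (1.26, 0.0659), replicate 3 (1.19, 0.0555) or replicate 4 (1.33, 0.0599), and its adjusted p ran from 0.00046 to 0.135 over all alternatives. It also ended without all libraries numbered 2 (0.135), 3 (0.0746) or 4 (0.0860). The Treg libraries numbered 1 had low Foxp3 transcript and the highest Il7r, and without all libraries numbered 1 the difference was larger (log2 1.71, adjusted p = 0.000766). Without number 1, Il7r in Eos- Tregs was further below Tconv (log2 -2.35, adjusted p = 0.000103), and in Eos+ Tregs it fell below Tconv by 0.64 on the log2 scale with an adjusted p of 0.0450, over a range of 0.0450 to 0.999999 across alternatives. The call between Eos- Tregs and Tconv held in all 12 fits that left out 1 library, and ended without all libraries numbered 2 (adjusted p = 0.0691) or 4 (0.0779), over a range of 0.000103 to 0.0779 across alternatives.

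The balance of Il2ra to Il7r, a description built from both genes with no test, set both kinds of Treg apart from Tconv, mainly through Il2ra. Between the kinds of Treg it differed within each number, mainly through Il7r, but the groups overlapped. In CPM, Eos+ Tregs held 1.13, 1.44, 2.69 and 2.41 Il2ra counts per Il7r count in replicates 1 to 4. Eos- Tregs held 2.12, 4.63, 9.26 and 5.75, and in each number the Eos- ratio was above the Eos+ ratio, although the lowest Eos- value lay inside the Eos+ range. In Tconv the ratio turned over, with 14.8, 41.4, 31.3 and 27.5 Il7r counts per Il2ra count. On the log2 scale the balance was 0.85 ± 0.60 for Eos+ and 2.26 ± 0.89 for Eos- Tregs, and for Tconv it was -4.75 ± 0.63 (SD over 4 libraries). Per kilobase of exon, which is needed to compare the 2 genes as transcripts, the Il2ra to Il7r ratio was 0.919 to 2.20 in Eos+ Tregs and 1.73 to 7.56 in Eos- Tregs, so Eos+ Treg replicate 1 carried slightly more Il7r than Il2ra.

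**Figure D2:**
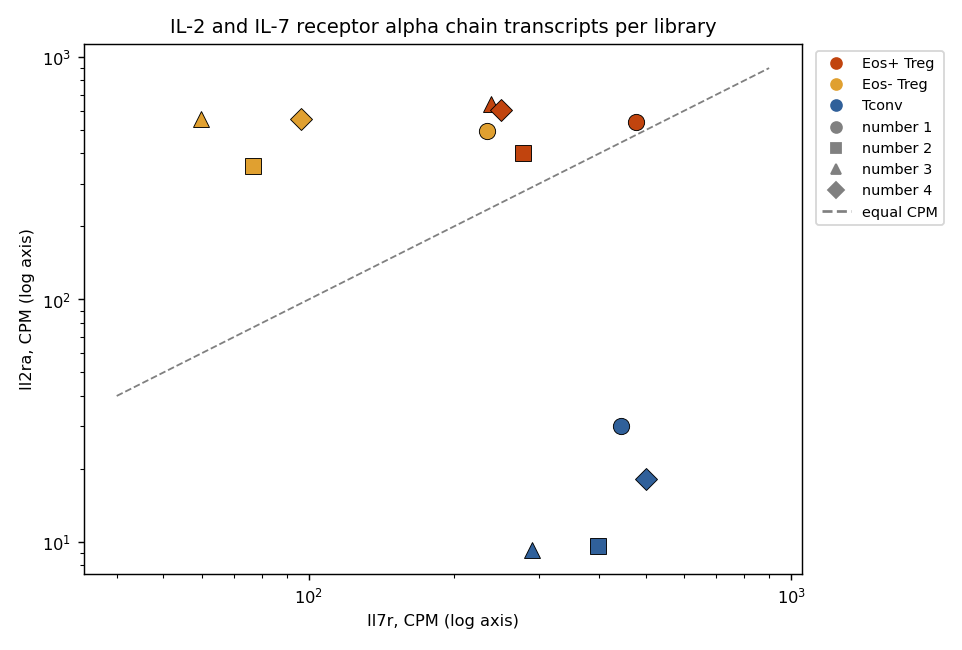
Il2ra level (vertical, CPM, log axis) against Il7r level (horizontal, CPM, log axis), 1 point per library; colour gives the population, marker shape the library number, and the dashed line equal CPM. Tconv lies below the line at 9.26 to 30.04 CPM of Il2ra, Eos- Tregs lie to the left at 59.7 to 234 CPM of Il7r, and Eos+ Treg replicate 1 lies closest to the line.

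Il4ra (ENSMUSG00000030748.9, chromosome 7, 125552120 to 125579474, plus strand), the alpha chain of the IL-4 receptor, did not differ detectably between any pair of populations. Its levels were 267, 310, 408 and 262 CPM in Eos+ Tregs, 377, 309, 363 and 314 CPM in Eos- Tregs, and 351, 313, 369 and 292 in Tconv. All 3 ranges overlapped, and Eos+ Tregs held both the highest and the lowest library. The log2 differences were -0.13 ± 0.14 SE between the kinds of Treg (adjusted p = 0.595 with edgeR, 95% interval -0.42 to 0.17), -0.09 ± 0.14 between Eos+ Tregs and Tconv (0.692, -0.38 to 0.21) and 0.04 ± 0.14 between Eos- Tregs and Tconv (0.893, -0.25 to 0.34). The sign of both differences from Tconv turned under some alternatives.

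Il21r (ENSMUSG00000030745.9, chromosome 7, 125603429 to 125633570, plus strand), the private chain of the IL-21 receptor, lies 24 kb downstream of Il4ra and showed small differences with little spread. It was 463, 467, 462 and 447 CPM in Eos+ Tregs, 405, 419, 432 and 391 CPM in Eos- Tregs, and 338, 324, 361 and 270 in Tconv. The populations did not overlap in any pair, in the order Eos+ Tregs, Eos- Tregs, Tconv. Il21r was 1.42-fold higher in Eos+ Tregs than in Tconv (log2 0.51 ± 0.08 SE, adjusted p = 0.000482 with edgeR) and 1.27-fold higher in Eos- Tregs (log2 0.35 ± 0.08, adjusted p = 0.0135). The step between the kinds of Treg, log2 0.16 ± 0.08, did not pass the test (adjusted p = 0.231, 95% interval -0.02 to 0.34). Without all libraries numbered 2 the Eos- Treg call against Tconv ended (adjusted p = 0.102, over a range of 0.000671 to 1 across alternatives).

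Il15ra (ENSMUSG00000023206.16, chromosome 2, 11705290 to 11734317, plus strand), the alpha chain that binds IL-15 and can present it to neighbouring cells, lies 12.1 kb from Il2ra and was scarce in all populations. It was 20.4, 19.1, 16.4 and 21.5 CPM in Eos+ Tregs, 10.1, 11.9, 12.8 and 16.5 CPM in Eos- Tregs, and 7.81, 4.29, 6.87 and 6.94 in Tconv. Every Treg library exceeded every Tconv library, and the kinds of Treg met at Eos+ Treg replicate 3 and Eos- Treg replicate 4. Il15ra was 2.98-fold higher in Eos+ Tregs than in Tconv (log2 1.58 ± 0.21 SE, adjusted p = 9.44e-05 with edgeR) and 1.98-fold higher in Eos- Tregs (log2 0.99 ± 0.21, adjusted p = 0.00652). The Eos- Treg call ended without all libraries numbered 4 (adjusted p = 0.0539, over a range of 0.000113 to 0.172 across alternatives).

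Between the kinds of Treg, Il15ra stood at a log2 difference of 0.59 ± 0.20 with an adjusted p of 0.0697 from edgeR, higher in Eos+ Tregs in 4 of 4 numbers. With the library number as a block the difference passed at 0.60 (adjusted p = 0.0492), and it also passed with DESeq2 (adjusted p = 0.0347), limma-voom (0.0337), without Eos- Treg replicate 4 (log2 0.73, 0.0389) and without Tconv replicate 2 (log2 0.58, 0.0423). The difference was smaller without Eos- Treg replicate 1 (log2 0.48, adjusted p = 0.139) and without all libraries numbered 1 (log2 0.46, adjusted p = 0.224). Over all alternatives its adjusted p ran from 0.0337 to 1.

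Il9r (ENSMUSG00000020279.10, chromosome 11, 32187541 to 32200279, minus strand), the alpha chain of the IL-9 receptor, had the largest difference of the 8 genes between the kinds of Treg. It was 23.8, 23.7, 26.7 and 9.62 CPM in Eos+ Tregs, 4.65, 1.22, 1.42 and 1.32 CPM in Eos- Tregs, and 3.76, 1.17, 3.48 and 0 in Tconv. Tconv replicate 4 held no count, which allows up to 0.0789 CPM (3 counts, counting error only). All 4 Eos+ Treg libraries lay above all 8 others, Eos+ Treg replicate 4 was the lowest of its group, and Eos- Tregs and Tconv overlapped. Il9r was 9.82-fold higher in Eos+ than in Eos- Tregs (log2 3.30 ± 0.89 SE, adjusted p = 0.0235 with edgeR) and 9.99-fold higher than in Tconv (log2 3.32 ± 0.89, adjusted p = 0.0129). Eos- Tregs and Tconv differed by 0.02 ± 0.85 (adjusted p = 0.992), with a 95% interval of -1.81 to 1.86 that leaves a several-fold difference undetectable at these counts.

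With the library number as a block, the log2 difference of Il9r between Eos+ and Eos- Tregs was 3.38 (adjusted p = 0.00696 with edgeR). In fits without the block, the Il9r call ended without Eos+ Treg replicate 2 (log2 3.23, adjusted p = 0.0517 with edgeR) or replicate 3 (3.16, 0.0550). That call also ended without Eos- Treg replicate 2 (3.10, 0.0690), 3 (3.14, 0.0657) or 4 (3.12, 0.0640). It also ended without all libraries numbered 2 (0.155) or 3 (0.154). Its adjusted p ran from 0.00179 to 0.155 over all alternatives, and without all libraries numbered 1 it was 0.0290 (log2 3.91). Against Tconv the call held in all 12 fits without 1 library and ended without all libraries numbered 2 (adjusted p = 0.0948) or 3 (0.0597), over a range of 0.00236 to 0.0948. Sums over marker lists of other cell types were set beside this pattern. Summed CPM of 6 innate lymphoid cell genes was 107 to 160 in Eos+ Tregs, 55.6 to 72.1 in Eos- Tregs and 41.0 to 70.3 in Tconv, without overlap between Eos+ Tregs and the rest. Within that list Kit was the largest member in Eos+ Treg replicates 2 to 4, at 90.97, 82.6 and 67.8 CPM, and was 27.4 CPM in replicate 1. Kit reached at most 55.8 CPM in Eos- Tregs and 11.5 CPM in Tconv. Every Treg library held more Kit than every Tconv library, while Eos+ and Eos- Tregs overlapped. Il1rl1 reached 22.3 to 53.1 CPM in Eos+ Tregs, at most 11.0 CPM in Eos- Tregs and at most 0.461 CPM in Tconv. Il17rb was highest in Tconv, and Il5 was at 0 in Eos- Tregs and Tconv. For 6 B cell genes the sum was 39.0 to 150, 3.53 to 25.5 and 8.31 to 50.5 CPM, with overlap between Eos+ Tregs and Tconv. For 9 dendritic cell and macrophage genes it was 49.4 to 122, 5.29 to 73.6 and 15.1 to 45.5 CPM, with overlap between Eos+ and Eos- Tregs. For 9 NK and cytotoxic cell genes it was 154 to 300, 74.2 to 273 and 177 to 389 CPM, with overlap in every pair. Members of this list differed: Nkg7 was 108 to 160, 33.7 to 72.6 and 55.7 to 188 CPM, whereas Klrb1c and Klrd1 were highest in Tconv, at 20.9 to 98.4 and 8.62 to 36.4 CPM. The sum of 6 epithelial genes, 23.5 to 39.4, 10.9 to 15.2 and 6.28 to 8.76 CPM, was nearly all Epcam, at 22.4 to 36.3, 10.1 to 15.1 and 6.28 to 7.65 CPM. Krt8 reached at most 1.10 CPM, and Krt5 and Foxn1 were at 0 in both Eos- Tregs and Tconv. The part of such cells in the Il9r, Il15ra or Il7r differences, or in the Il2rb level of Tconv, was not tested.

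**Figure D3:**
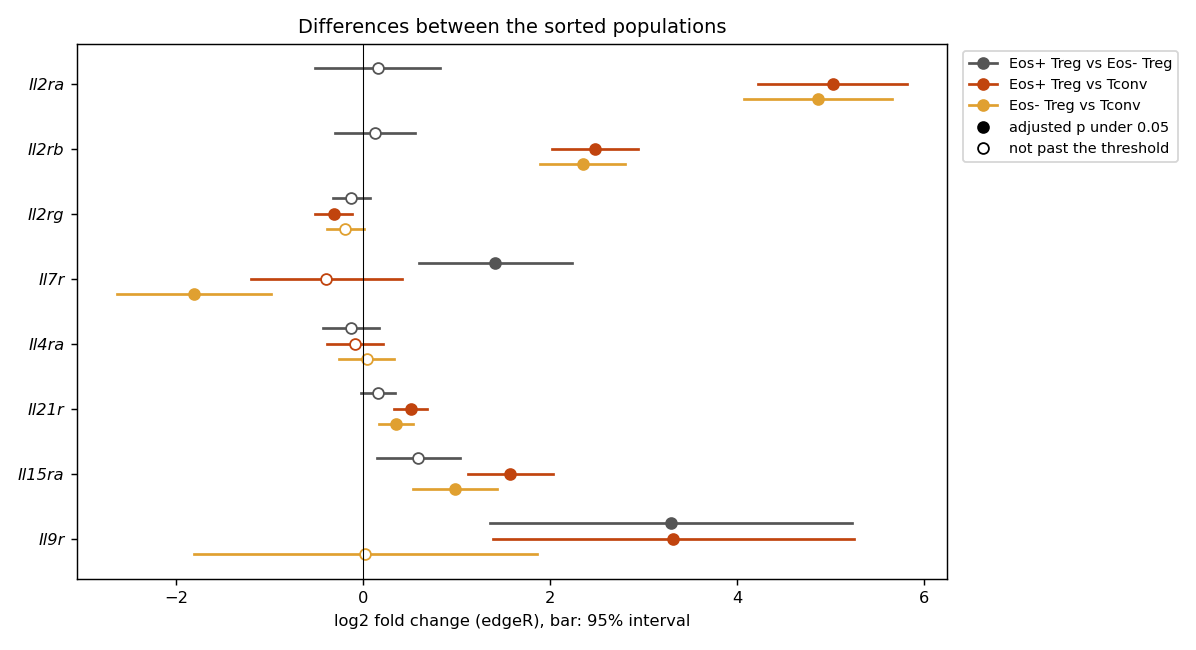
Log2 fold change of each receptor gene from edgeR (horizontal axis) for Eos+ against Eos- Tregs, Eos+ Tregs against Tconv and Eos- Tregs against Tconv; points are estimates, bars 95% intervals, filled points an adjusted p under 0.05. Il2ra lies near 5 against Tconv for both kinds of Treg, and Il7r and Il9r are the filled points between the kinds of Treg.

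Counted over the family, Eos+ against Eos- Tregs gave 2 of 8 genes higher (Il7r and Il9r), 0 lower and 6 not past the threshold. The background was 16.3% of all tested genes called, 9.82% higher and 6.45% lower, so 2 of 8 is close to it and says nothing about the family as a whole. In 3 of 8 genes the groups did not overlap, beside 20% of all tested genes. For Eos+ Tregs against Tconv, 5 of 8 were higher (Il2ra, Il2rb, Il21r, Il15ra and Il9r) and 1 was lower (Il2rg), where 30.3% of all genes were called, 17.3% higher and 13% lower. Groups did not overlap in 6 of 8, beside 33.1%. For Eos- Tregs against Tconv, 4 of 8 were higher (Il2ra, Il2rb, Il21r and Il15ra) and 1 was lower (Il7r), where 14.6% were called, 8.76% higher and 5.89% lower, and groups did not overlap in 5 of 8, beside 20.1%. The median log2 change of the 8 genes was 0.16, 1.04 and 0.20 in these comparisons, beside 0.0027, -0.0075 and -0.012 over all tested genes. The last 2 comparisons share the Tconv libraries.

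Divided by exon length, the order of the 8 transcripts placed Il2rg first in all populations, at 775 ± 59.2 CPM per kb for Eos+ and 846 ± 88.1 for Eos- Tregs, and 965 ± 39.0 for Tconv. Il2rb came next in both kinds of Treg, at 346 ± 56.6 and 316 ± 61.9 CPM per kb, and Il21r followed at 138 ± 2.71 and 124 ± 5.34. In Tconv the second place went to Il21r, 97.2 ± 11.6, and Il7r at 87.5 ± 19.1, whose ranges overlapped, followed by Il2rb at 61.9 ± 17.2 and Il4ra at 55.2 ± 5.84, which overlapped as well. Il2ra followed Il21r in Tregs (95.6 ± 18.4 and 85.7 ± 16.4 CPM per kb) and lay below Il4ra in Tconv (2.94 ± 1.71). In Eos+ Tregs the level of Il7r, 66.7 ± 24.1 CPM per kb, overlapped those of Il2ra and of Il4ra, 52.0 ± 11.3. In Eos- Tregs the level of Il7r, 25.0 ± 17.0, lay below that of Il4ra, 56.8 ± 5.74, in every library. There Il2ra and Il4ra met at 62.2 and 62.8 CPM per kb, the lowest Il2ra and the highest Il4ra library. Il15ra and Il9r had the lowest means in every population, at 4.35 ± 0.50 and 4.24 ± 1.55 CPM per kb in Eos+ Tregs. These 2 overlapped in Eos+ Tregs, and in Tconv the ranges of Il2ra and Il15ra overlapped. Of the summed level per kilobase of the 8 genes, Il2rg made up 52.4 ± 4.19% in Eos+ and 58.1 ± 4.85% in Eos- Tregs, and 75.9 ± 1.10% of that of Tconv. The share of Il2rb was 23.3 ± 3.47%, 21.7 ± 4.09% and 4.84 ± 1.17%.

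**Figure D4:**
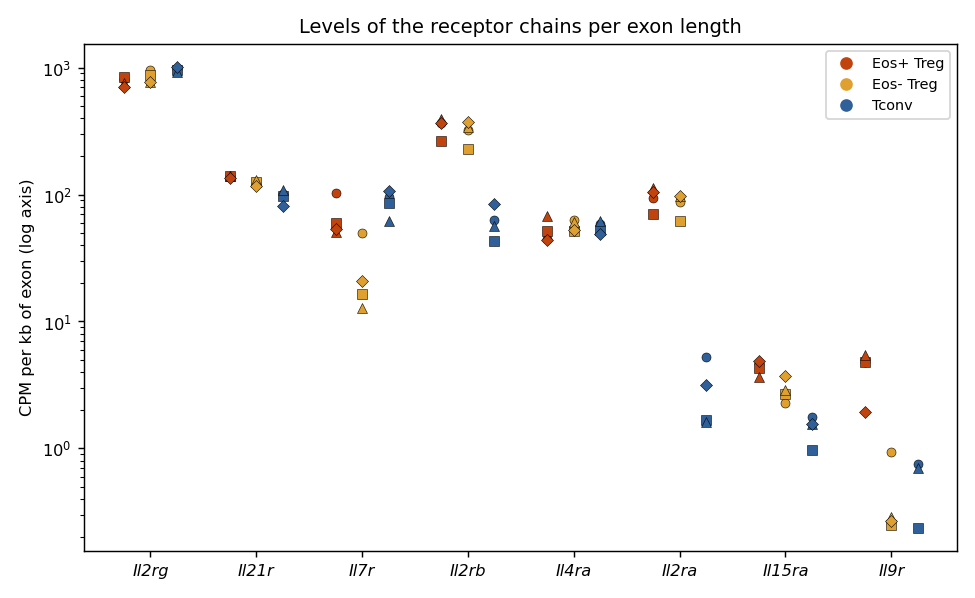
Level of each receptor gene in CPM per kb of exon (log axis) in the 12 libraries, 1 point per library, coloured by population and shaped by library number as in the plot of Il2ra against Il7r. Il2rg is highest in every population and Il15ra and Il9r lowest in Tregs; the 1 Tconv library with no Il9r count cannot be drawn on a log axis and is left out.

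Of 6 genes of cytokines that bind these receptors, 4 were tested. The transcript of Il2 did not exceed 0.789 CPM in any library, Il9 had no count in any, and Il7 reached at most 1.10 CPM. Il4, the ligand of the Il4ra chain, averaged 1.99 ± 0.585 CPM in Tconv but 0.106 ± 0.0968 in Eos+ Tregs, the only one to pass in any comparison (log2 -4.19, adjusted p = 0.0154 with edgeR). That call ended without all libraries numbered 2 (adjusted p = 0.0879) or 4 (0.0567), over a range of 0.000847 to 0.0879. Il21, the ligand of Il21r, was 10.5, 9.65, 4.57 and 5.65 CPM in Tconv and at most 2.7 CPM in the 8 Treg libraries, with adjusted p of 0.0942 (Eos+) and 0.178 (Eos-) against Tconv. With the library number as a block, Il4 and Il21 were called lower than in Tconv in both kinds of Treg and Il15 higher in Eos+ Tregs. Of the receptor chains outside the family that pair with its members, Il13ra1, which joins Il4ra to bind IL-13, was 7.02, 23.2, 9.18 and 11.4 CPM in Eos+ Tregs, at most 1.29 CPM in Eos- Tregs and at most 1.28 CPM in Tconv, with no overlap. It was higher in Eos+ than in Eos- Tregs (log2 4.31 ± 1.21 SE, adjusted p = 0.0287) and than in Tconv (log2 4.16 ± 1.20, adjusted p = 0.0188). The call between the kinds of Treg ended without Eos+ Treg replicate 2 (adjusted p = 0.0842) or Eos- Treg replicate 2 (0.0515) or 3 (0.0530), over a range of 0.0162 to 0.153, and that against Tconv ended without Eos+ Treg replicate 2 (0.0594) or Tconv replicate 1 (0.0507), over a range of 0.00304 to 0.0594. Crlf2, which joins Il7r in the receptor for TSLP, was 20.6 ± 2.47, 14.3 ± 1.40 and 14.4 ± 2.10 CPM in Eos+ Tregs, Eos- Tregs and Tconv. It was higher in Eos+ Tregs than in either other group (adjusted p = 0.0284 and 0.0191 with edgeR). Of the 12 fits without 1 library, 5 and 3 lost these calls (highest adjusted p = 0.0790 and 0.0606, over alternatives 0.00618 to 1 and 0.00462 to 0.999999).

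The kinases and STATs downstream of the receptors were called higher in Tregs than in Tconv in 5 of 7 genes for Eos+ and 6 of 7 for Eos- Tregs, with 0 lower in either, beside 17.3% and 8.76% of all tested genes called higher. With the library number as a block, Stat5b was also higher and Jak1 lower in Eos+ Tregs than in Tconv. The Stat5b call in Eos- Tregs was lost in 7 of 12 fits without 1 library (highest adjusted p = 0.120 with edgeR, over alternatives 0.0031 to 1). Stat3 rose to 700 ± 92.5 CPM in Eos+ Tregs against 308 ± 42.7 in Tconv (2.27-fold, adjusted p = 2.41e-05 with edgeR), Jak3, the kinase bound to the gamma chain, to 438 ± 42.4 against 208 ± 25.5 (2.11-fold, adjusted p = 9.74e-05), and Stat5a to 305 ± 83.0 against 139 ± 9.64 (2.20-fold, adjusted p = 0.000509). In Eos- Tregs Stat5a was 386 ± 72.4 CPM, log2 1.48 ± 0.19 above Tconv (adjusted p = 0.000229). Between the kinds of Treg 1 of the 7 was called: Jak1, which pairs with the private chains, was 1383 ± 158 CPM in Eos+ and 1782 ± 78.3 in Eos- Tregs (log2 -0.37 ± 0.09, adjusted p = 0.0147). That call ended without all libraries numbered 3 (adjusted p = 0.0816) or 4 (0.0826), over a range of 0.000525 to 1, and with the block Jak3 was called higher in Eos+ than in Eos- Tregs as well. The median log2 change of the list was -0.17, 0.54 and 0.53 in the 3 comparisons.

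Among the feedback inhibitors of these pathways, Socs2 and Cish, which STAT5 is known to induce, rose most over Tconv in both kinds of Treg. Of 6 genes, 5 were higher and 1 lower in Eos+ Tregs against Tconv, 3 were higher in Eos- Tregs against Tconv, and 3 were higher in Eos+ against Eos- Tregs, which compares with 17.3%, 8.76% and 9.82% of all tested genes called higher. With the block Socs3 was also called higher in the last 2. The Socs1 calls against Tconv were lost in 3 of 12 fits without 1 library for Eos+ Tregs (highest adjusted p = 0.0584 with edgeR, over alternatives 0.000102 to 0.457) and in 7 of 12 for Eos- Tregs (0.123, over 0.000432 to 0.891). The lower gene was the phosphatase gene Ptpn2, whose call was lost in 4 of 12 fits without 1 library (highest adjusted p = 0.0964, over a range of 0.00723 to 0.999999 across alternatives). Socs2 was 63.6, 57.2, 75.0 and 65.0 CPM in Eos+ Tregs, 39.4, 19.8, 29.1 and 32.8 CPM in Eos- Tregs and 2.39, 1.77, 3.85 and 3.86 in Tconv, with no overlap in any pair. It was 21.8-fold above Tconv in Eos+ Tregs (adjusted p = 2.17e-07 with edgeR), 10.1-fold in Eos- Tregs (adjusted p = 5.85e-06) and 2.15-fold higher in Eos+ than in Eos- Tregs (log2 1.11 ± 0.24 SE, adjusted p = 0.00770). The last of these ended without all libraries numbered 3 (adjusted p = 0.0678, over a range of 6.37e-05 to 0.104). Cish was 395 ± 60.4, 277 ± 57.2 and 38.7 ± 5.98 CPM, 10.2-fold and 7.16-fold above Tconv (adjusted p = 4.39e-08 and 4.09e-07). Its 1.42-fold difference between the kinds of Treg (adjusted p = 0.0412) was lost in 8 of 12 fits without 1 library, with a highest adjusted p there of 0.122 and a range of 0.00755 to 1 over alternatives. Sh2b3, an adaptor that restrains cytokine signalling, was 71.2 ± 4.71, 50.4 ± 5.13 and 39.4 ± 5.43 CPM, higher in Eos+ than in Eos- Tregs (log2 0.50 ± 0.11, adjusted p = 0.00998). That call ended without all libraries numbered 2 (0.0718) or 3 (0.0729), over a range of 0.000564 to 1. In that comparison Il2ra and Il2rb did not pass the test.

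Among 7 survival and growth genes known to respond to gamma chain cytokines, 1 was higher and 2 lower in Eos+ than in Eos- Tregs, 3 were higher and 2 lower in Eos+ Tregs against Tconv, and 2 were higher and 0 lower in Eos- Tregs against Tconv. Of all tested genes, 9.82% were higher and 6.45% lower in the first comparison, 17.3% and 13% in the second and 8.76% and 5.89% in the third. The Ccnd2 call between the kinds of Treg was lost in 4 of 12 fits without 1 library (highest adjusted p = 0.0819 with edgeR, over alternatives 0.000774 to 1) and the Myc call in Eos- Tregs against Tconv in 8 of 12 (0.0974, over 0.00226 to 0.897). With the block Mcl1 was also lower and Pim1 higher in Eos+ than in Eos- Tregs. Bcl2, the anti-apoptotic gene known as a target of IL-7, was 296, 269, 323 and 342 CPM in Eos+ Tregs, 673, 515, 722 and 612 CPM in Eos- Tregs, and 503, 558, 487 and 439 in Tconv. The Eos+ Treg libraries lay below all others. It was 2.05-fold lower in Eos+ than in Eos- Tregs (log2 -1.04 ± 0.11 SE, adjusted p = 9.19e-05 with edgeR) and 1.62-fold lower than in Tconv (log2 -0.69 ± 0.11, adjusted p = 0.000504). Il7r was thus higher, and Bcl2 lower, in Eos+ than in Eos- Tregs. Bcl2l1, which encodes Bcl-xL, went the other way, at 139 ± 25.4 CPM in Eos+ and 85.6 ± 3.43 CPM in Eos- Tregs, and 88.4 ± 8.21 CPM in Tconv (log2 0.70 ± 0.12 between the kinds of Treg, adjusted p = 0.00186). Pim1, a kinase gene induced by STAT5, was 56.2 ± 19.3, 28.8 ± 12.8 and 8.78 ± 2.50 CPM, above Tconv in both (log2 2.68 ± 0.35 and 1.71 ± 0.34, adjusted p = 8.36e-05 and 0.00458).

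Foxo1, a known activator of Il7r, and 4 other genes it is known to activate were set beside Il7r. In Eos+ against Eos- Tregs 4 of 5 were lower and 0 higher. Foxo1 itself did not pass there (adjusted p = 0.328 with edgeR) but was called lower with the library number as a block. In Eos- Tregs against Tconv 5 of 5 were higher, and both comparisons share the Eos- Treg libraries. Il7r was higher in the first comparison and lower in the second, and the part of Foxo1 in this was not tested. Of all tested genes 6.45% were lower in the first comparison and 8.76% higher in the second. S1pr1, the receptor for thymic egress, was 343 ± 75.2 CPM in Eos+ and 713 ± 50.8 CPM in Eos- Tregs, and 319 ± 34.2 CPM in Tconv. Its log2 difference was -1.06 ± 0.14 SE between the kinds of Treg (adjusted p = 0.000344 with edgeR) and 1.16 ± 0.14 between Eos- Tregs and Tconv (adjusted p = 0.000166). Ccr7, a chemokine receptor, was 827 ± 175, 1359 ± 298 and 850 ± 139 CPM (log2 -0.72 ± 0.18 between the kinds of Treg, adjusted p = 0.0147 with edgeR). The latter call ended without all libraries numbered 2 (0.0806) or 3 (0.0955), over a range of 3.21e-05 to 0.615. The calls for Foxo1, Klf2 and Ccr7 in Eos- Tregs against Tconv were lost in 6, 5 and 4 of 12 fits without 1 library, with a highest adjusted p there of 0.0993, 0.0958 and 0.0729 and ranges over all alternatives of 0.000942 to 0.911, 0.000237 to 0.275 and 3.26e-05 to 0.860. That for Klf2 between the kinds of Treg (adjusted p = 0.0477) was lost in 10, with a highest adjusted p of 0.140 and a range over alternatives of 0.000343 to 0.403.

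Of 7 known regulators of Il7r or Il2ra, 1 was higher and 1 lower in Eos+ than in Eos- Tregs, beside 9.82% and 6.45% of all tested genes. The part of these regulators in the Il7r or Il2ra differences was not tested. Runx1 was called lower than in Tconv in both kinds of Treg. In Eos- Tregs the Runx1 call was lost in 4 of 12 fits without 1 library (highest adjusted p = 0.0714 with edgeR). It also ended without all libraries numbered 2 (0.115), 3 (0.0753) or 4 (0.0999). Runx3 was 29.9 ± 7.37 CPM in Eos+ and 16.1 ± 2.17 CPM in Eos- Tregs, and 44.8 ± 10.1 CPM in Tconv. Its log2 difference was 0.89 ± 0.20 SE between the kinds of Treg (adjusted p = 0.00973 with edgeR) and -1.47 ± 0.21 between Eos- Tregs and Tconv (adjusted p = 0.000413). The Runx3 call between the kinds of Treg ended without all libraries numbered 2 (adjusted p = 0.0586) or 3 (0.102), over a range of 0.00033 to 0.262. Runx3 was also called lower in Eos+ Tregs than in Tconv, a call lost in 5 of 12 fits without 1 library (highest adjusted p = 0.130 with edgeR). Ets1 was 1770 ± 111, 2389 ± 182 and 2574 ± 109 CPM, lower in Eos+ than in Eos- Tregs (log2 -0.43 ± 0.08, adjusted p = 0.00302). Gfi1, a repressor of Il7r, averaged 24.3 ± 4.57 CPM in Tconv and was higher in Eos+ Tregs, 50.1 ± 7.90, and Eos- Tregs, 57.0 ± 1.54 (log2 1.04 ± 0.15 and 1.23 ± 0.15, adjusted p = 0.000151 and 0.00015). Rel, an NF-kB subunit known to activate Il2ra, was 143 ± 55.5, 147 ± 42.7 and 46.8 ± 6.35 CPM and higher in both kinds of Treg (adjusted p = 0.000498 and 0.00109). Over all 7 lists, with 38 of 40 genes tested, 7 were higher and 8 lower in Eos+ against Eos- Tregs, 19 and 7 in Eos+ Tregs against Tconv, and 19 and 2 in Eos- Tregs against Tconv. The shares of all tested genes were 9.82% and 6.45%, 17.3% and 13%, and 8.76% and 5.89%.

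**Figure D5:**
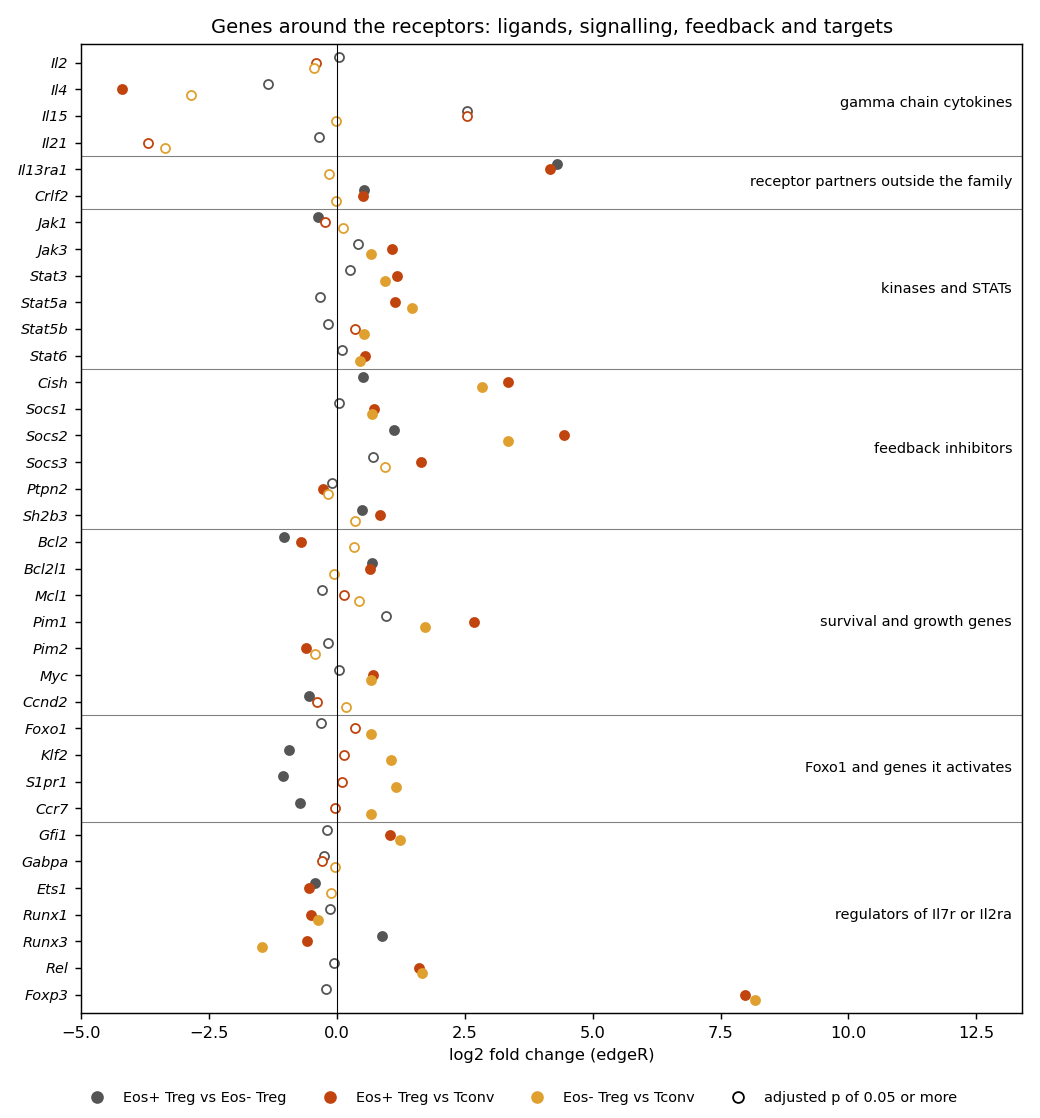
Log2 fold change from edgeR of 36 of the 38 tested pathway genes, grouped by list, for the 3 comparisons; filled points have an adjusted p under 0.05. Socs2 and Cish lie furthest right among the feedback inhibitors in both comparisons with Tconv, and the Foxo1 list lies left of 0 for Eos+ against Eos- Tregs and right of 0 for Eos- Tregs against Tconv.

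Over the 12 libraries, the tested genes with a mean of at least 10 CPM whose profile was most like that of Il2ra were Ctla4, Rln3 and Syp, with a root mean square difference of 0.378, 0.550 and 0.752 in log2(CPM + 1) centred on each gene's mean. Ctla4 averaged 424 ± 64.4 CPM in Eos+ and 286 ± 70.0 CPM in Eos- Tregs, and 14.3 ± 4.28 CPM in Tconv. Near the profile of Il7r lay Ctla2a (0.352) and Asf1b (0.408), at lower levels. Ctla2a averaged 34.8 ± 18.0, 11.1 ± 8.79 and 32.2 ± 11.6 CPM, and Asf1b averaged 39.2 ± 13.3, 22.1 ± 15.7 and 49.9 ± 6.84 CPM.

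Of 30 other tested genes within 100 kb of a member, 1 was higher and 1 lower in Eos+ against Eos- Tregs, 6 and 2 in Eos+ Tregs against Tconv, and 4 and 0 in Eos- Tregs against Tconv, near or below the 16.3%, 30.3% and 14.6% of all tested genes called. Kctd17, 40 kb from Il2rb, was 5.15-fold higher in Eos+ than in Eos- Tregs, where Il2rb did not pass. C1qtnf6, 28.1 kb from Il2rb on the other side, averaged 14.3 CPM in Eos+ and 7.22 CPM in Eos- Tregs, and 0.468 CPM in Tconv, higher in both kinds of Treg. Gm37881, a short unclassified transcript that lies inside Il2ra and shares no exon position with it, was 4.17, 4.97 and 0.0892 CPM and was likewise higher in both; reads from that stretch cannot be assigned to the one gene or the other with certainty.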

How the data were processed

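RNA was sequenced from 12 libraries, 4 for each of Eos+ Tregs, Eos- Tregs and Tconv sorted from thymus. Libraries were built by template switching from 1 ng of RNA and tagmentation, per the labels' protocols, which keeps no strand. The authors deposited expected counts per gene, which RSEM estimates and which need not be whole. The mm10 genome, STAR 2.7.0f, RSEM 1.3.1 and cutadapt 1.18 are named per the submitters' processing notes, with settings not given in the sources used here. Positions and exon lengths came from GENCODE M21 (GRCm38), which holds all 55450 gene IDs. Reads shared between overlapping genes make single values uncertain.

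The members and gene lists were chosen with earlier results of these data known. Expected counts were rounded and tested with edgeR 4.0.16 in R 4.3.3 (quasi-likelihood F test, TMM, filterByExpr, 1 mean per group over all 12 libraries), and two-sided p-values were adjusted by the Benjamini-Hochberg method over 15361 genes. The fit was tested on simulated data. Named genes were the 8 members, the label genes, called genes with the 4 largest changes of each pathway list, the 3 profiles nearest to Il2ra and to Il7r, and tested genes within 100 kb of a member. The text names a subset of these and picked it after their values were seen. Some named genes, 2 pathway genes among them, are not reported here singly but stay in the counts. Sequences came from RefSeq.

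The library numbers pair the samples: deviations from the group mean correlated at 0.224 to 0.500 between same-numbered libraries, above the highest value with another number (0.0764) in all 12 pairs, and library names share a code within a number. Alternatives were a block on the number, RLE or no scaling factors, no filter, DESeq2 1.42.0, limma-voom (limma 3.58.1), only the 2 groups compared, a test against a 1.5-fold change, and leaving out each library or number. Fits that left out a library or number did not include the block. Ranges of adjusted p over alternatives include the test against a 1.5-fold change, which smaller estimated differences could not pass. Libraries of a group differed beyond sampling noise (chi-square per degree of freedom 25.4 to 80.9). Floors of 3 counts cover counting error only, since reads are not independent molecules.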

Additional observations from a re-analysis of the deposited data

Results flagged for a closer look

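In Eos+ Tregs, Il7r stood at 477.6 CPM in replicate 1, far from the other 3 libraries at 238.2 to 278.7 CPM. In Eos- Tregs, Il9r stood at 4.65 CPM in replicate 1, with the other 3 at 1.22 to 1.42 CPM. Both libraries are numbered 1, the number with the lowest Foxp3 in Tregs. Every library of that number, Tconv included, also held 26.0 to 35.6 CPM of Rag1 and 105 to 115 CPM of Dntt, genes of immature thymocytes. Libraries numbered 2 held 6.14 to 44.4 and 12.6 to 83.3 CPM, and those numbered 3 or 4 at most 3.50 and 38.2 CPM. Both come from a list of 7 double-positive thymocyte genes. Its sum was 328 to 388 CPM in number 1, 232 to 330 in number 2 and 142 to 198 in numbers 3 and 4. Other members differed. Cd1d1 was 133 to 138 CPM in number 1, within its range of 128 to 176 over all libraries. In Tconv, Cd8a was lower in number 1 (28.5 CPM) than in number 2 (45.9). Over the 27 sets of 4 libraries examined, chance marks about 1 in 20 groups.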

How the results depend on the processing

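Across 24 alternative fits, 531 of 576 values for the 8 receptor genes kept their direction and side of the threshold, 30 no longer passed, 6 newly passed and 9 changed sign. These 576 include comparisons not called in the main fit, which had no call to lose. Between the kinds of Treg, the Il7r and Il9r calls were lost in 4 and 5 of 12 fits without 1 library. Other named genes entered only where the main fit called them, so none could newly pass. Of their 2232 values, 1922 were the same and 310 no longer passed. The test against a 1.5-fold change is among these fits, and smaller estimated differences could not pass it. All sign changes concern differences that passed in no fit. They are Il2rb between the kinds of Treg without Eos- Treg replicate 2 (-0.0020, with 0.24 the highest value without 1 library), Il4ra in Eos+ Tregs against Tconv without all libraries numbered 1 (0.0048), Il4ra in Eos- Tregs against Tconv without Eos- Treg replicate 1 (-0.0054) or Tconv replicate 4 (-0.016, highest without 1 library 0.095), and Il9r in Eos- Tregs against Tconv without Eos- Treg replicate 1 (-0.66), Tconv replicate 2 (-0.17), Tconv replicate 4 (-0.40), number 1 (-0.22) or number 4 (-0.21), with 0.47 the highest value without 1 library.

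With the replicate block, Il15ra between the kinds of Treg newly passed (log2 0.60, adjusted p = 0.0492 with edgeR), and no other receptor gene changed its call. Under the block, called genes numbered 3498, 5571 and 3300 for Eos+ against Eos- Tregs, Eos+ Tregs against Tconv and Eos- Tregs against Tconv (main 2500, 4655 and 2249), receptor genes 3, 6 and 5 (main 2, 6 and 5), and pathway genes 20, 32 and 26 (main 15, 26 and 21).

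A test against a 1.5-fold change asks for more than a difference, and called 778, 1854 and 513 genes, 0 and 3 receptor genes (Eos+ against Eos- Tregs, and Eos- Tregs against Tconv), and 2, 13 and 10 pathway genes. With only the 2 groups compared, 1 receptor gene was called between the kinds of Treg. For Eos+ against Eos- Tregs, leaving out numbers 2 and 3 in all groups gave 1208 and 1381 called genes, 0 and 0 receptor genes, and 6 and 5 pathway genes, and leaving out number 4 gave 1 receptor gene. For Eos+ Tregs against Tconv, leaving out number 2 gave 3031 called genes. For Eos- Tregs against Tconv, leaving out numbers 2, 3 and 4 gave 1081, 1170 and 1196 called genes, leaving out number 2 or 4 gave 3 receptor genes, and leaving out number 3 gave 12 pathway genes. Without all libraries numbered 1, calls for pathway genes ended as well. Between the kinds of Treg these were Crlf2, Cish, Ccnd2 and Klf2 (adjusted p = 0.101, 0.127, 0.0703 and 0.0580 with edgeR). Against Tconv they included Crlf2, Socs1 and Ptpn2 in Eos+ Tregs (0.102, 0.0986 and 0.0856) and Socs1 in Eos- Tregs (0.0947). Each of these calls also ended without another number. Fewer samples are tested in these fits, and the cause of single losses was not tested. Without 1 library, receptor genes called between the kinds of Treg ran from 0 to 3 and genes called from 1910 to 2936. Il9r had no count in Tconv replicate 4, although that library was the deepest, at 37.9 M expected counts. The cause was not tested.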
